A study of Mus musculus with 10 samples.

Results

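*Sox10*, *Foxd3*, *Fabp7*, *Cdh19*, *Ednrb*, *S100b* and *Ngfr* are genes by which neural crest-derived glia and Schwann cell precursors are recognised. They were taken by name, 7 of the 22114 genes counted in the first pharyngeal arch (PA1) of mouse embryos at E10.5. The PA1s came from 5 *Grhl2*+/+ (wild-type) and 5 *Grhl2*-/- embryos, all male, of a line labelled C57BL/6 and back-crossed to C57BL/6J, with 1 RNA library for each embryo and no other allele or agent. *Grhl2*-/- embryos carry a null allele through the germline, not one limited to a cell type. Reads of *Grhl2*, an epithelial transcription factor, numbered 794 to 1163 in each wild-type arch but 81 to 178 in each mutant arch. Whole arches were sequenced, so each value is a sum over mesenchyme, epithelium, vessels, nerve and any ganglion tissue in the dissection. In such samples fewer cells of a type and less RNA per cell cannot be told apart.

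Cranial neural crest cells that enter the arches mostly become ectomesenchyme and switch off the early crest regulators. A smaller part keeps SOX10 and associates with the trigeminal ganglion and its nerve branches, as satellite glia and Schwann cell precursors. SOX10 and FOXD3 are transcription factors of the early crest and its glial descendants. FABP7 (brain lipid-binding protein) and cadherin 19 mark glial precursors, EDNRB and NGFR are receptors for endothelins and neurotrophins, and S100B is a calcium-binding protein of later glia. Melanoblasts share SOX10 and EDNRB, the otic epithelium expresses SOX10, and radial glia of the neural tube express FABP7, so genes of those tissues and of sensory neurons were measured beside them.

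RefSeq promoter windows (GRCm38.p6), cut at 250 bases before the annotated start, were found for *Foxd3*, *Fabp7*, *Ednrb*, *S100b* and *Ngfr*, 5 of the 7 genes. As SOX10 is a regulator of crest glia, the windows were searched on both strands for its core letters ACAANG, which 36.3% of 32851 promoter windows of this length hold. *Fabp7* and *S100b* each held 1 match, and *Foxd3*, *Ednrb* and *Ngfr* held 0. The letters AACCGGTT, to which grainyhead factors bind, and the E-box CACCTG, to which ZEB and SNAI factors bind, had 0 matches in the 5 windows, against 0.116% and 17.2% of all windows. No window held matches to more than 1 motif, so none overlapped. The windows of the 2 genes with a match are shown because *Fabp7* was read in every arch and *S100b* almost nowhere. The capitals mark the SOX core, from base -135 to -130 before the start in *Fabp7*, and in *S100b* on the reverse strand from base -250 to -245. *Fabp7* (chr10:57784673-57784880, plus strand) is cut before its first annotated exon, and *S100b* (chr10:76253586-76253835, plus strand) is shown whole.
Fabp7: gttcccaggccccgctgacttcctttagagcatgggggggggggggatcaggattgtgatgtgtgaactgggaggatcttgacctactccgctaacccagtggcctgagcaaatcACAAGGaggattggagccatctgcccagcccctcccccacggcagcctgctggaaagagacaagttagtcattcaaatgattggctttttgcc
S100b: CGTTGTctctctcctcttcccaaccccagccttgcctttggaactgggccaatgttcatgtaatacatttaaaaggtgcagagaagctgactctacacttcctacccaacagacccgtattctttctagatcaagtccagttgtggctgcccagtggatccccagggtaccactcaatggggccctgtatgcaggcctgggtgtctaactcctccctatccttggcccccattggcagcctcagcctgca

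2 libraries stood apart and are named before the results that rest on them. The wild-type arches 1-566 and 1-568 had the fewest reads of *Sox10*, *Foxd3*, *Fabp7*, *Cdh19* and *Ednrb* of all 10 arches, and also the lowest summed level of 19 sensory neuron genes, at 155 and 132 CPM (counts scaled to library size, TMM-normalized) against 459 to 1606 CPM in the other 8. Total counts were 22188454 to 28801378 per arch, and arch 1-566 had the fewest. The first number in these names is the embryo and the second a number that some embryos of both genotypes share, whose meaning the labels do not give. Genes of the labelled tissue were present in all arches, with 9 ectomesenchyme genes summing to 955 to 1431 CPM. The 2 low arches had the highest of these sums, 1431 and 1413 CPM. The 9 log2 fold changes were all negative, with 5 at an unadjusted p below 0.05 and 0 at FDR 0.01 in limma-voom (0 by edgeR, 4 by DESeq2), and the part of this in the glial values was not tested.

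Transcripts of 6 of the 7 genes were found in every arch, whereas *S100b* was at or near 0. *S100b* had 1 read in each of the wild-type arches 5-566 and 8-568 and in the *Grhl2*-/- arch 2-566, and 0 reads in the other 7. A count of 0 allows up to 3 reads, which is 0.104 to 0.135 CPM in these libraries, counting error only. The 7 genes in the list are therefore described as 6 measured genes, and *S100b*, with fewer than 10 reads in every arch, entered no test.

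*Sox10* lies on chromosome 15 of GRCm38 (79154908 to 79165240, minus strand). The wild-type arches 1-566, 5-566, 1-568, 8-568 and 3-588 had 3.996, 50.5, 3.31, 35.3 and 31.8 CPM of it. In the *Grhl2*-/- arches 2-566, 2-568, 1-588, 3-604 and 1-628 it was at 60.9, 25.7, 24.9, 51.5 and 49.5 CPM. The 2 low wild-type arches lay far below the rest, and 2 of the 5 *Grhl2*-/- arches were above every wild-type arch, so the genotypes overlapped. The mean was 24.97 ± 20.7 CPM for wild-type arches, against 42.5 ± 16.3 CPM for the mutant arches (SD, n = 5 for either genotype). The log2 fold change was 1.36 (limma-voom, standard error 0.667, 95% interval -0.10 to 2.82, FDR 0.204), which did not pass.

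*Foxd3*, a single-exon gene on chromosome 4 (99656299 to 99658622), was lower in level and low in the same 2 wild-type arches. In the same order of arches its values were 0.636, 8.36, 0.863, 6.46 and 4.98 CPM in wild-type PA1. The *Grhl2*-/- values were 10.7, 4.48, 3.42, 10.1 and 9.41 CPM. Of the 5 *Grhl2*-/- arches, 3 exceeded all wild-type arches while 2 lay among them. The log2 fold change was 1.27 (limma-voom, 95% interval -0.16 to 2.69, FDR 0.222). A microRNA gene, *Gm23366*, shares 89 bases of its exon on the same strand, so reads there cannot be assigned to 1 of them.

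*Fabp7* (chromosome 10, 57784881 to 57788450) varied most of the 6. The wild-type arches had 1.45, 22.3, 1.08, 10.54 and 7.53 CPM of it. In the *Grhl2*-/- arches it was at 32.5, 5.23, 4.74, 11.9 and 12.0 CPM. The highest arch was 30.1 times the lowest over all arches, and in the mutant group arch 2-566 stood alone, with the next at 12.0 CPM. The log2 fold change was 1.03 (limma-voom, 95% interval -0.72 to 2.78, FDR 0.416).

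*Cdh19* (chromosome 1, 110888326 to 110977584) had a narrower range. The wild-type arches had 1.36, 5.71, 1.87, 5.01 and 4.22 CPM of it. The *Grhl2*-/- arches had 9.48, 3.95, 3.78, 6.22 and 6.51 CPM. The highest arch was 6.96 times the lowest, so the 2 low wild-type arches kept more *Cdh19* than *Sox10* in proportion. The log2 fold change was 0.81 (limma-voom, 95% interval -0.05 to 1.66, FDR 0.198).

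*Ednrb*, the endothelin receptor gene (chromosome 14, 103814625 to 103844402) was at 6.54, 39.1, 6.69, 28.6 and 26.5 CPM in wild-type PA1. It was at 59.0, 27.4, 22.5, 44.1 and 41.9 CPM in *Grhl2*-/- PA1. Of the 6 genes it had the lowest p, and the interval of its log2 fold change of 1.10 lay above 0 (0.06 to 2.14), but its FDR in limma-voom was 0.155.

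*Ngfr* (chromosome 11, 95568818 to 95587735), the low-affinity neurotrophin receptor, was not depleted in both of the low arches. Its wild-type values were 31.2, 46.0, 19.2, 35.3 and 26.5 CPM. Its *Grhl2*-/- values were 66.0, 30.4, 21.8, 54.0 and 55.7 CPM. Wild-type 1-566, low for the other 5 genes, was the median wild-type arch for *Ngfr*, and the highest arch of all was only 3.44 times the lowest. The log2 fold change was 0.47 (limma-voom, 95% interval -0.23 to 1.17, FDR 0.348).

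**Figure D1:**
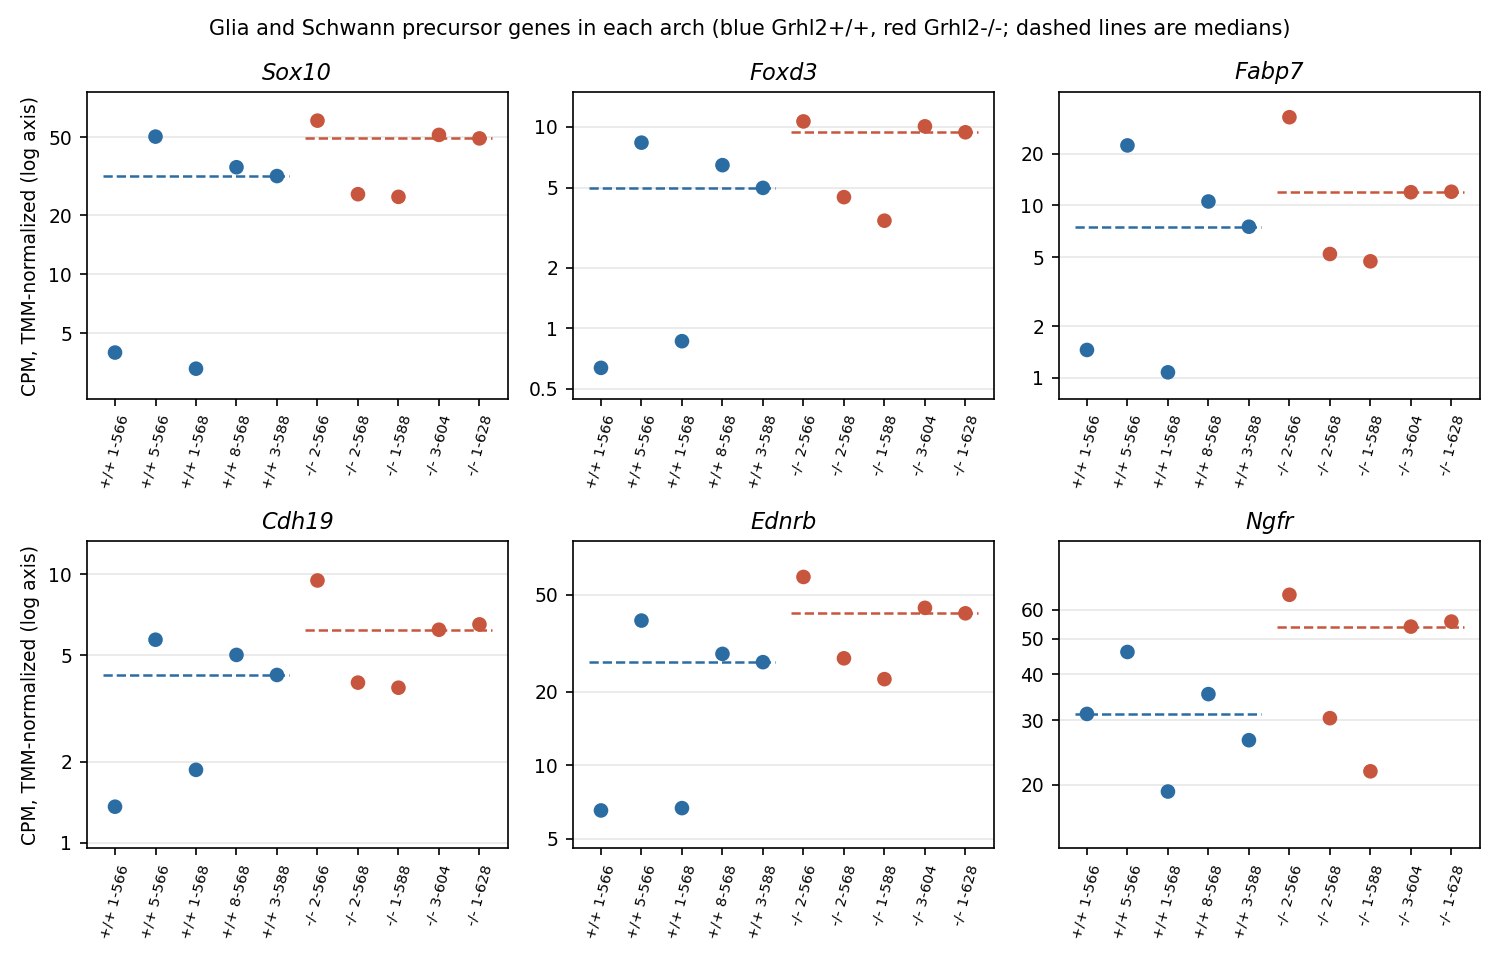
TMM-normalized CPM on a log axis of the 6 measured genes in each arch, 1 point an arch, with a dashed line at the median of each genotype. Wild-type 1-566 and 1-568 lie below the other 8 arches for *Sox10*, *Foxd3*, *Fabp7*, *Cdh19* and *Ednrb*, but not for *Ngfr*, and the genotypes overlap in every panel.

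None of the 6 genes tested passed FDR 0.01 in limma-voom, where 1.96% of the 14561 genes tested were called, 1.09% as lower and 0.879% as higher in *Grhl2*-/- PA1. At FDR 0.05 the count was also 0 of 6, against 7.71% of all genes in either direction and 3.84% as higher. At an unadjusted p below 0.05, *Ednrb* alone of the 6 passed, against 28.5% of all genes in either direction and 14.2% as higher. edgeR's quasi-likelihood test and DESeq2 also called 0 of the 6 at FDR 0.01. Of all genes, edgeR called 161 as lower and 142 as higher, and DESeq2 553 and 520. At an unadjusted p below 0.05 both also had 0 of the 6, against 28.9% of all genes by edgeR and 28.7% by DESeq2. The edgeR log2 fold changes were 0.76 for *Sox10*, 0.83 for *Foxd3* and 0.63 for *Fabp7*, each below that of limma-voom by a factor of over 1.5, and 0.72 for *Cdh19*, 0.86 for *Ednrb* and 0.53 for *Ngfr*. All 6 log2 fold changes were positive, as were 52.7% of those of all genes tested, and their median was 1.07 against 0.01. The same arches carry all 6 values, so these are not independent observations. The intervals reach from a fold of 0.930 to 7.04 for *Sox10* and from 0.854 to 2.25 for *Ngfr*, so differences within them were not resolved by 5 arches of each genotype.

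The values were smaller without the 2 low wild-type arches. This was tried after the values were seen, and since these arches are the lowest for 5 of the 6 genes, leaving them out had to lower the difference. Without them, the mean of the 3 remaining wild-type arches was 39.2 CPM for *Sox10* against 42.5 CPM in *Grhl2*-/- PA1. The log2 fold changes were then 0.03 for *Sox10* (95% interval -0.65 to 0.72), 0.07 for *Foxd3* (-0.79 to 0.94) and -0.24 for *Fabp7* (-1.53 to 1.05). They were 0.18 for *Cdh19*, 0.23 for *Ednrb* and 0.25 for *Ngfr*, and the lowest limma-voom FDR of the 6 was 0.704. With the mean of the sensory neuron genes as a covariate and all 10 arches, they ran from -0.36 for *Fabp7* to 0.18 for *Ednrb*, with -0.026 for *Sox10* (95% interval -0.17 to 0.12). The sensory neuron values themselves move with the genes described, so this fit compares arches at a like neuronal level only.

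**Figure D2:**
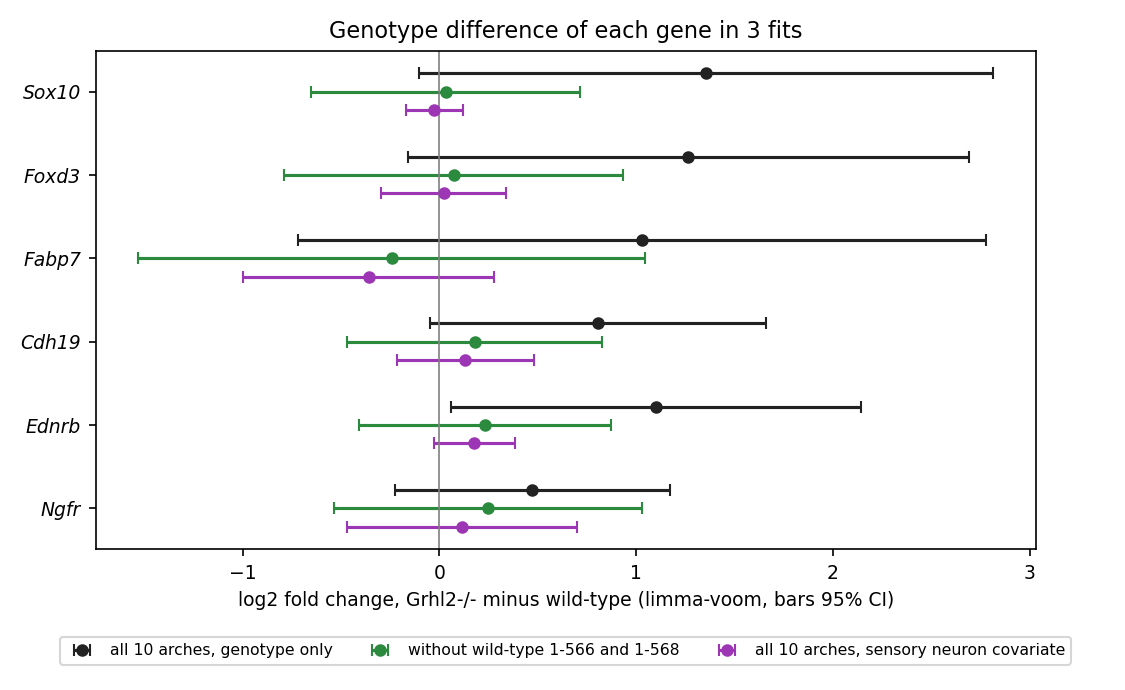
Log2 fold change of each gene, *Grhl2*-/- minus wild-type, with its 95% interval from limma-voom in 3 fits. The values of 1.36 for *Sox10* and 1.10 for *Ednrb* with all arches move to 0.03 and 0.23 without wild-type 1-566 and 1-568, and to -0.026 and 0.18 with the sensory neuron covariate.

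Among arches whose labels share a number the direction differed. For number 566, the *Grhl2*-/- arch was above both wild-type arches for each of the 6 genes, with *Sox10* at 60.9 CPM against 3.996 and 50.5 CPM. For number 568, the *Grhl2*-/- arch lay between the 2 wild-type arches for each gene, with *Sox10* at 25.7 CPM against 3.31 and 35.3 CPM. For number 588, the *Grhl2*-/- arch was below the single wild-type arch for each gene, with *Sox10* at 24.9 against 31.8 CPM. With 1 *Grhl2*-/- arch a number, no number could be tested alone.

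The genes varied within both genotypes more than most genes. The SD of log2 CPM over the 5 wild-type arches was 1.88 for *Sox10* and for *Fabp7* and 1.72 for *Foxd3*, where the median gene had 0.115. These SDs exceeded those of 98.8%, 98.8% and 98.5% of all genes tested, and that of *Ngfr* (0.472) exceeded 88.0%. In the *Grhl2*-/- arches the SD was lower for *Sox10* (0.606), *Foxd3* (0.756), *Fabp7* (1.12), *Cdh19* (0.551) and *Ednrb* (0.558), but not for *Ngfr* (0.678). These exceeded the SDs of 89.8% (*Cdh19*) to 98.5% (*Fabp7*) of all genes over the same arches, where the median gene had 0.134. The wild-type SDs include the 2 low arches 1-566 and 1-568, where *Sox10* had a log2 CPM of 2.01 and 1.73. It was 5.66, 5.14 and 4.99 in wild-type 5-566, 8-568 and 3-588. Over those arches alone the SD of *Sox10* was 9.97 CPM, below the 16.3 CPM of the mutant arches. The SDs of the genotypes were not tested against each other.

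Per kilobase of exon, the order of the levels was not the same in all arches. Over the 10 arches *Ngfr* (11.2 CPM per kilobase) and *Sox10* (11.1) were highest, followed by *Fabp7* (8.74), *Ednrb* (7.09), *Foxd3* (2.55) and *Cdh19* (1.12). *Ngfr* exceeded *Sox10* in 3 arches only, among them the 2 low wild-type arches, and these neighbours did not differ beyond their spread. *Fabp7* exceeded *Ednrb* in 3 arches, so their order was not fixed either. *Ednrb* exceeded *Foxd3* per kilobase in all 10 arches, and *Foxd3* exceeded *Cdh19* in 8, the exceptions being again wild-type 1-566 and 1-568.

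Relative to *Sox10*, the 2 low arches had more *Ngfr*, *Ednrb* and *Cdh19* than the other 8. Reads of *Ngfr* came to 83.2 to 118% of those of *Sox10* in the 8 arches, but to 781 and 579% in wild-type 1-566 and 1-568. For *Ednrb* the share was 77.5 to 107% in the 8 arches, against 164 and 202%, and for *Cdh19* it was 11.3 to 15.6%, against 34.1 and 56.5%. *Foxd3* was at 13.8 to 19.6% in the 8 arches and 15.9 and 26.1% in the 2. *Fabp7* reads were 19.1 to 53.3% of *Sox10* reads in the 8 arches, and 36.4 and 32.6% in the 2 low arches lay inside that range. Between the genotypes no difference in the log2 ratio to *Sox10* passed for any of the 5 genes. The largest difference was -0.94 for *Ngfr* (exact two-sided permutation test over 252 assignments of arches, p = 0.429, 0.556 after Benjamini-Hochberg adjustment over the 5 ratios).

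Within the 8 arches other than the 2 low ones, which form a cluster of their own, the genes varied together. Pearson's r of log2 CPM with *Sox10* was 0.976 for *Foxd3*, 0.953 for *Ednrb*, 0.952 for *Ngfr*, 0.940 for *Cdh19* and 0.925 for *Fabp7* (n = 8, adjusted exact permutation p from 0.000546 to 0.00175 over 11 relations). Spearman's rho was 0.976, 0.952, 0.905, 0.929 and 0.929 for the same genes, with adjusted exact permutation p from 0.00218 to 0.00502. When the *Grhl2*-/- arches 1-588 and 2-568, farthest from the median of *Sox10*, were also left out, r was 0.831 to 0.976 over 6 arches. The points share their libraries and scaling, and with both genotypes in them they are not replicates of 1 condition. Over all 10 arches r was 0.9497 to 0.989 for *Foxd3*, *Fabp7*, *Cdh19* and *Ednrb* but 0.698 for *Ngfr*.

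**Figure D3:**
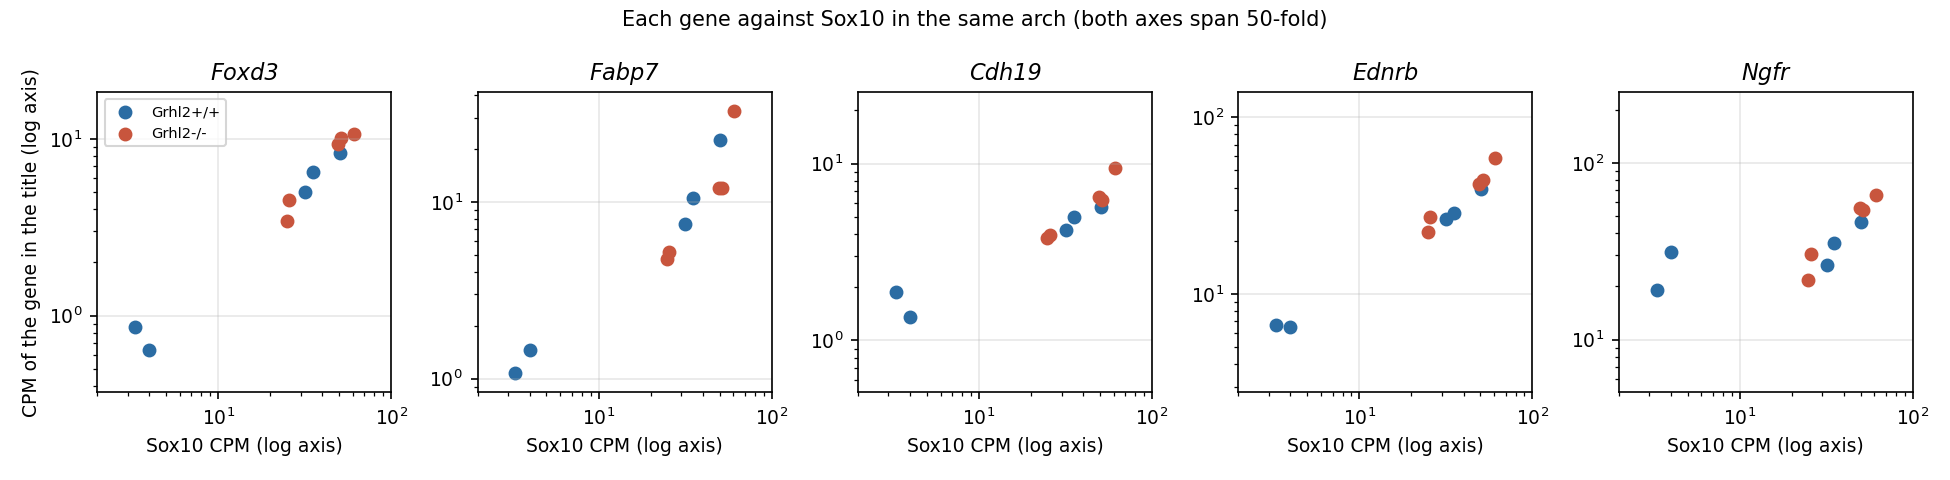
CPM of *Foxd3*, *Fabp7*, *Cdh19*, *Ednrb* and *Ngfr* against CPM of *Sox10* in the same arch, both on log axes of equal span, 1 point an arch and coloured by genotype. *Foxd3* and *Fabp7* fall with *Sox10* into the 2 low wild-type arches, *Cdh19* and *Ednrb* fall less, and *Ngfr* stays at 19.2 and 31.2 CPM.

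Sensory neuron genes moved with them. The summed level of the 19 genes found in the table (*Neurog1*, *Neurod1*, *Pou4f1*, *Isl1*, *Tubb3* and others that neurons of the trigeminal ganglion express) correlated in the 8 arches at r = 0.990 with *Sox10*, 0.968 with *Foxd3*, 0.935 with *Fabp7*, 0.933 with *Ngfr* and *Ednrb* (0.9325) and 0.928 with *Cdh19* (n = 8, adjusted exact permutation p from 0.000546 to 0.00228). Spearman's rho was 0.881 to 1 for these relations, with adjusted exact permutation p of 0.000546 to 0.00724, and r was 0.870 to 0.987 without *Grhl2*-/- 1-588 and 2-568. None of the 19 neuron genes passed FDR 0.01 in limma-voom or edgeR (4 and 2 at an unadjusted p below 0.05), and DESeq2 called *Neurog2*. Of the 19, 18 had positive log2 fold changes and their median was 2.02. Their part in the values of the glial genes was not tested.

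The genes whose pattern over the 10 arches was most like the mean of the 6 standardized glial genes were genes of neurons. Of 12686 genes at a mean of at least 1 CPM, *Kif5a*, a neuronal kinesin, had the highest r (0.996), followed by *Cntn2*, an axonal adhesion molecule (0.996), *Map1b*, a microtubule-associated protein of axons (0.995), *Cyfip2* (0.994) and *Mapk8ip2* (0.994). Without wild-type 1-566 and 1-568 these were 0.989, 0.982, 0.984, 0.9748 and 0.983. For single genes, the closest were *Nefl* for *Sox10* (0.999), which is also among the sensory neuron genes, *Gsg1l* for *Foxd3* (0.998), *Car11* for *Fabp7* (0.994), *Kif1a* for *Cdh19* (0.989), *Pappa2* for *Ednrb* (0.997) and *Ppfia3* for *Ngfr* (0.982). The second closest were *Stmn4* for *Sox10* (0.998), *Onecut2* for *Foxd3* (0.997), *Heyl* for *Fabp7* (0.993) and *Lama4* for *Ngfr* (0.972). An r above 0.9 with the mean was found for 423 of the 12686 genes, so the pattern is shared widely.

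Other genes of glia and Schwann cell precursors followed in part. Of 19 tested of a list of 20, none passed FDR 0.01 in limma-voom or edgeR, and 4 and 3 had an unadjusted p below 0.05. Positive log2 fold changes were found for 15, and the median was 0.24. *Lgi4*, a secreted glial protein of the nerve, was at 1.36 and 1.76 CPM in wild-type 1-566 and 1-568 and at 8.24 to 27.1 CPM in the other arches. *Erbb3*, the neuregulin receptor of crest glia, was less tied to them. It was at 35.5 and 32.9 CPM in the 2 low arches, but at 25.9 and 33.1 CPM also in the *Grhl2*-/- arches 1-588 and 2-568. The lowest p of the list belonged to *Sox2*, a transcription factor of glial and neural progenitors, and to *Itga4*, an integrin subunit. *Sox2* ranged from 19.98 to 29.2 CPM among wild-type arches and from 32.1 to 47.3 CPM among mutant arches. It thus had no overlap, as in 8.88% of all genes tested. Its log2 fold change was 0.61 (limma-voom, FDR 0.0202), which DESeq2 called (FDR 0.00015). It was 0.48 (FDR 0.141) without wild-type 1-566 and 1-568 and 0.51 (FDR 0.0791) with the sensory neuron covariate. That of *Itga4* was 0.36 (limma-voom, FDR 0.0676), with 0.22 (FDR 0.309) without those arches and 0.21 (FDR 0.22) with the sensory neuron covariate. *Gfap*, a marker of mature glia, had at most 8 reads in any arch and was not tested.

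The endothelin genes around *Ednrb* did not share its pattern. Of 7 genes tested, none passed FDR 0.01 in limma-voom or edgeR, 2 had an unadjusted p below 0.05 with either tool, DESeq2 called *Ece1*, and their median log2 fold change was 0.04. *Edn3*, the ligand of EDNRB in crest cells, had 23.7 to 28.7 CPM among wild-type arches and 26.4 to 33.0 CPM among mutant arches (log2 fold change 0.20, FDR 0.112). *Ece1*, which cleaves endothelin precursors, was at 129 to 146 CPM and 149.9 to 164 CPM in the same groups, without overlap, as in 8.88% of all genes tested (log2 fold change 0.18, limma-voom FDR 0.0296). Summed over the 9 genes, the pathway was at 402 to 441 CPM in all arches, the 2 low ones included.

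Of 13 neurotrophin pathway genes around *Ngfr*, 1 was lower and none was higher at FDR 0.01. For *Ntf5*, which encodes neurotrophin 4, the wild-type arches had 6.59, 5.67, 7.69, 6.14 and 6.69 CPM, and the mutant arches 4.43, 4.45, 4.96, 3.82 and 3.83 CPM. *Ntf5* thus had no overlap between the groups, as in 8.88% of all genes tested. Its log2 fold change was -0.60 (limma-voom, standard error 0.112, FDR 0.00947), with -0.53 (FDR 0.0721) without wild-type 1-566 and 1-568 and -0.50 (FDR 0.0420) with the sensory neuron covariate. It passed in 2 of the 10 fits that each left out 1 arch. With the label number as a block it was -0.51 and did not pass (FDR 0.0602). It also did not pass with library size alone (FDR 0.0108) or with no filter beyond 1 count (FDR 0.0104). *Ntrk3*, a receptor that sensory neurons express beside NGFR, was at 0.227 and 0.359 CPM in wild-type 1-566 and 1-568 and at 2.39 to 8.55 CPM in the other 8 arches. *Sort1*, a co-receptor of NGFR, averaged 119 CPM over wild-type and 136 CPM over mutant arches (log2 fold change 0.19, FDR 0.0543).

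Neuregulin 1, the axonal signal on which Schwann cell precursors depend, is encoded by *Nrg1*. It was at 1.73 and 0.683 CPM in wild-type 1-566 and 1-568 and at 3.71 to 12.1 CPM in the other arches. Of 6 neuregulin and ErbB genes tested besides *Erbb3*, none passed FDR 0.01 in limma-voom, edgeR or DESeq2, and 2 had an unadjusted p below 0.05 with each. The lowest FDR was 0.0609 for *Erbb4* (log2 fold change 0.97) and 0.0841 for *Nrg2* (0.91), while *Erbb2*, the partner of ErbB3, had a log2 fold change of -0.02.

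Among 15 genes of early neural crest, which the ectomesenchyme also expresses in part, 1 was lower in limma-voom, the homeobox gene *Msx1*, and none was higher, while DESeq2 also called *Msx2* as lower. *Msx1* was at 142 to 205 CPM among wild-type and 94.6 to 129 CPM among mutant arches, without overlap, as in 8.88% of all genes tested. It was not called without wild-type 1-566 and 1-568, where the other 3 wild-type arches, at 142 to 169 CPM, were still above all mutant arches. The median log2 fold change was 0.01. Their summed level was 901 to 968.5 CPM among wild-type and 851 to 947 CPM among mutant arches, with 908 and 968.5 CPM in wild-type 1-566 and 1-568. The sum hides differences between its genes, whose r with *Sox10* over the 10 arches ran from -0.762 for *Msx2* to 0.971 for *Zeb2*. *Zeb2* was at 50.1 and 51.8 CPM in wild-type 1-566 and 1-568 and at 89.8 to 143 CPM in the other arches.

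Sums of markers of other tissues that contain *Sox10*, *Ednrb* or *Fabp7* were less tied to *Sox10* than the sensory neuron sum (r = 0.983). Over the 10 arches, r of their log2 sums was 0.093 for melanoblasts, 0.434 for neural tube and 0.340 for otic epithelium. The melanoblast list summed to 57.4 to 65.7 CPM among wild-type and 64.2 to 85.5 CPM among mutant arches. Most of it was *Kit*, while *Tyr* and *Tyrp1* had 0 reads in 4 of the 5 wild-type arches each. The neural tube list summed to 15.2 to 26.2 CPM among wild-type and 25.9 to 86.2 CPM among mutant arches, with *Otx2* at 1.18 to 11.7 and 12.9 to 38.3 CPM, and *Olig1*, *Olig2*, *En1* and *Lhx5* at or near 0. The lowest sums of this list, 15.2 and 15.9 CPM, were in wild-type 1-566 and 1-568. Among its tested genes, r with *Sox10* over the 10 arches ran from -0.453 for *Emx2* to 0.905 for *Hes5*. Limma-voom called 0 of its 9 tested genes (6 at an unadjusted p below 0.05), edgeR called 1 as higher, and DESeq2 called 1 as lower and 2 as higher. Of the otic list, which summed to 2.63 to 6.76 CPM and 4.91 to 13.8 CPM, *Pax8* was higher (limma-voom FDR 0.00971), and *Oc90*, which defines the otic vesicle, had 0 reads in all 10 arches. *Pax8* had at most 1 read in each wild-type arch and 13 to 66 reads in each mutant arch, and was not called when wild-type 1-566 and 1-568 were left out, which had 0 and 1 read. The *Grhl2*-/- arches 1-588 and 2-568, with the highest melanoblast and otic sums, were the lowest of the mutant group for all 6 glial genes. The part of these tissues in the glial values was not tested. Of 7 autonomic neuron genes, limma-voom called *Phox2a* as higher, where DESeq2 called 3. *Phox2a* had 0 to 2 reads in each wild-type arch and 7 to 20 in each mutant arch. It was not called without the 2 low wild-type arches, of which 1-566 had the highest wild-type level. Of 6 surface epithelium genes, *Cdh1*, *Cldn6*, *Epcam* and *Esrp1* were lower, also without those 2 arches. Limma-voom called 0 of 8 blood and macrophage genes and 0 of 6 endothelial genes, where 3 and 4 had an unadjusted p below 0.05, and DESeq2 called 0 and 2 (*Kdr* and *Pecam1*).

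**Figure D4:**
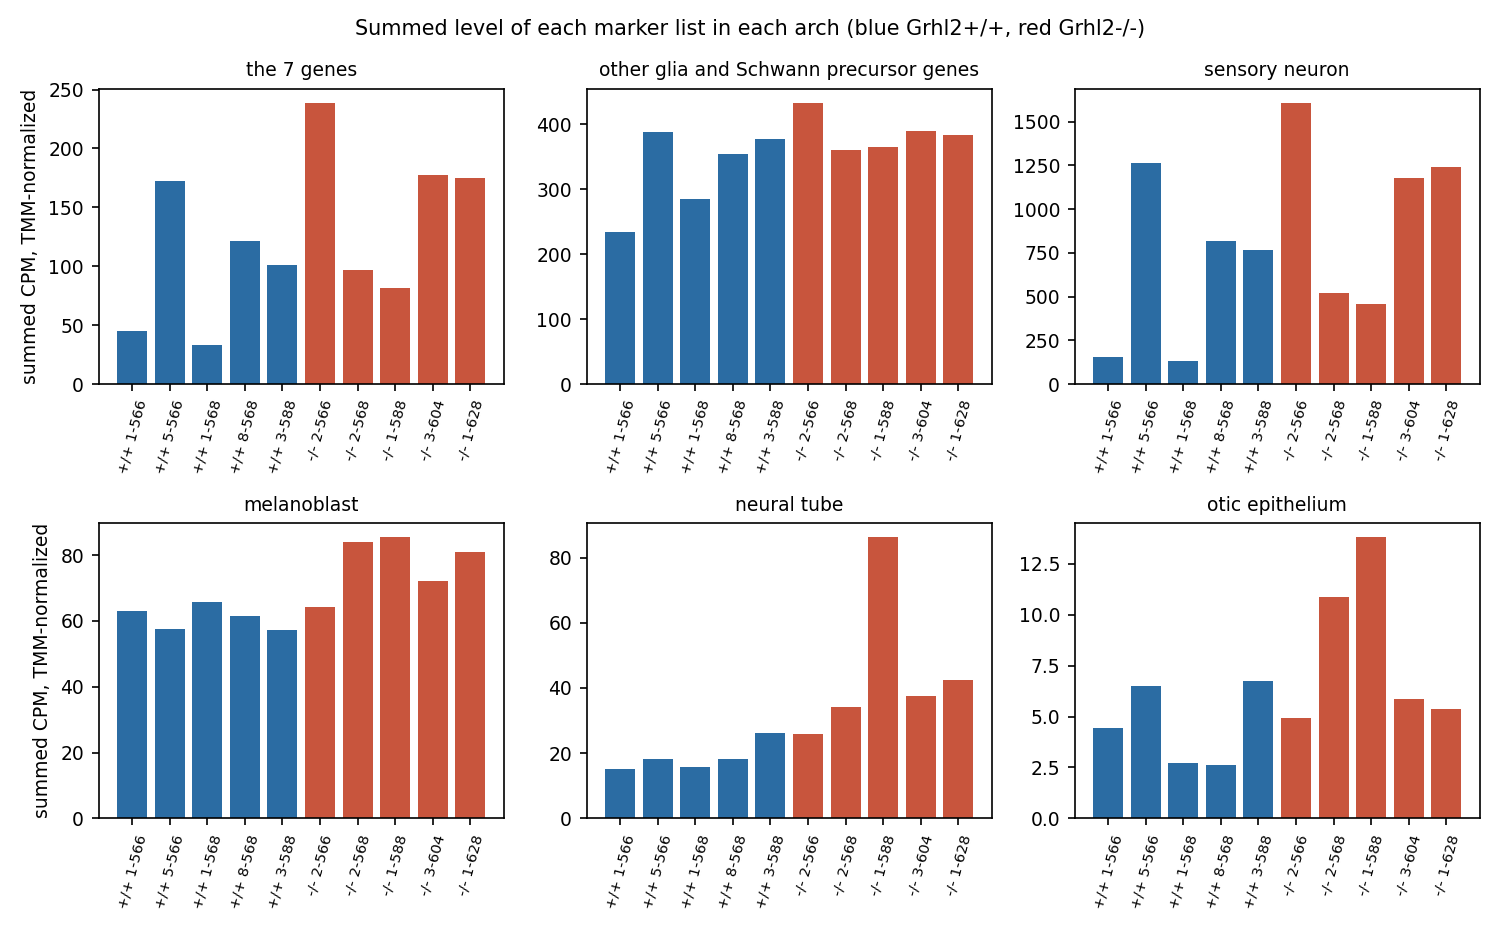
Summed TMM-normalized CPM of the 7 genes and of 5 marker lists in each arch, as bars from 0 coloured by genotype. The sensory neuron sum follows the sum of the 7 genes across arches, from 132 CPM in wild-type 1-568 to 1606 CPM in *Grhl2*-/- 2-566. The melanoblast and otic sums do not. The neural tube sum is lowest in wild-type 1-566 and 1-568 but highest in *Grhl2*-/- 1-588.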

How the data were processed

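RNA of PA1 from 10 E10.5 embryos was sequenced by the authors from stranded libraries depleted of ribosomal RNA, aligned to GRCm38 with STAR and counted with featureCounts. The deposited counts are not normalized. The table's title names reverse-strand counting of protein-coding features, the annotation release is not given in the sources used here, and the submitters' processing notes name edgeR 3.18.1 and limma 3.32.7. A second deposited table holds the authors' own fold changes and FDR values and was not used. Total counts were 22188454 to 28801378 per arch, so 3 reads equal 0.104 to 0.135 CPM.

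The 14561 genes that reached 10 counts in any arch were normalized by TMM and tested with limma-voom (limma 3.58.1, edgeR 4.0.16, R 4.3.3), with genotype as the only term and a Benjamini-Hochberg FDR below 0.01. The study's methods state limma-voom, TMM and this FDR, while the filter and the model term were chosen here. The p-values of the genotype comparisons measure the spread between embryos. Those of the correlations come from permuted pairings of 8 arches of both genotypes, without the 2 low wild-type arches. Log2 CPM used a prior count of 0.5. In the gene lists, *Bex3* and *Drgx* stand in the table under older symbols, *Ngfrap1* and *Prrxl1*. Coordinates, exon lengths (union of exons) and overlaps are from GENCODE M21 on GRCm38. Correlations used SciPy 1.17.1.

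The named genes are the 7, the called genes (or else the 2 with the lowest p) of the glial, endothelin, neurotrophin and neuregulin lists, the genes closest in pattern, and *Grhl2*. Other genes with values were chosen after their values were seen. Some genes that the rule or the lists hold are not reported here. The 7 genes and the lists were chosen with earlier results of these data known. On simulated counts of 14378 genes with 200 changed 2-fold, limma-voom recovered 87.5% with 1 false call, edgeR 88% with 1 and DESeq2 1.42.0 91.5% with 15. The 200 genes were drawn at random and simulated independently of each other, whereas the glial genes vary together and more than most genes. The recovery therefore does not apply to the glial genes. No 2 arches of a genotype agreed within sampling noise (chi-square per gene 6.94 to 25.1 over 20 pairs). The alternatives were edgeR, DESeq2, 2 other scalings, 3 other filters, sample weights, the label number as a block, the sensory neuron covariate, FDR 0.05, leaving out each arch and, added after the data were seen, leaving out wild-type 1-566 and 1-568.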

Additional observations from a re-analysis of the deposited data

Results flagged for a closer look

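In 58 groups of 5 arches (named genes and list sums in each genotype), 3 had an arch whose gap to its neighbour passed Dixon's 95% criterion, and chance gives about 2.9. *Fabp7* was highest in the *Grhl2*-/- arch 2-566, at 32.5 CPM against 12.0 CPM for the next arch. The neural tube list was highest in the wild-type arch 3-588, at 26.2 CPM against 18.3 CPM. In *Grhl2*-/- PA1 it was highest in arch 1-588, at 86.2 CPM against 42.4 CPM.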

How the results depend on the processing

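The number of the 6 glial genes called at FDR 0.01 was 0 in every alternative run. Their log2 fold changes stayed positive except for *Sox10* (-0.026) and *Fabp7* (-0.36) with the sensory neuron covariate, and *Fabp7* without wild-type 1-566 and 1-568 (-0.24). Leaving out 1 arch at a time gave 0.77 to 1.80 for *Sox10*, 0.81 to 1.68 for *Foxd3*, 0.44 to 1.59 for *Fabp7*, 0.55 to 1.02 for *Cdh19*, 0.75 to 1.42 for *Ednrb* and 0.30 to 0.71 for *Ngfr*, the lowest without wild-type 1-568 (1-566 for *Cdh19*). *Ntf5* passed in 2 of these 10 fits. The r of the genes most like the glial mean stayed at 0.9748 or above in every alternative run. Over all genes, 158 were lower and 128 higher, with 553 and 520 by DESeq2 and 564 and 559 at FDR 0.05. Higher genes were 204 with sample weights and 50 with the sensory neuron covariate. Without wild-type 1-566 and 1-568, 90 were lower and 19 higher. Leaving out 1 arch gave 110 (without wild-type 8-568) to 249 (without *Grhl2*-/- 1-588) lower genes. It gave 143 and 136 higher genes without *Grhl2*-/- 2-566 or 1-588, but 42 (without wild-type 8-568) to 76 (without wild-type 5-566) without any other arch. The causes were not tested. The label number as a replicate block gave 69 lower and 60 higher genes and 0 of the 6, with *Sox10* at 1.05 and *Edn3* at 0.13 (0.20 without the block). *Ntf5* did not pass with this block (FDR 0.0602). Same-numbered arches of the 2 genotypes correlated at -0.237 to 0.42 in their deviations (mean 0.105), above 0.1 in 3 of 5 pairs. Arches of different numbers had a mean of -0.0253 and were above 0.1 in 8 of 20 pairs. With 5 same-numbered pairs this cannot decide whether the number marks a shared effect. The main fit did not pair arches by it, as the labels do not give its meaning. Depth limits *S100b* and *Gfap*, which had too few reads to test.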

Other observations

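Pigment cell genes and eye field genes were uneven within the *Grhl2*-/- group, in an order unlike that of the glial genes. These genes were picked after their values were seen. *Pmel*, a melanosome protein of melanocytes and of retinal pigment epithelium, was at 10.3, 12.1 and 7.09 CPM in the *Grhl2*-/- arches 2-568, 1-588 and 1-628, and at 0.311 and 0.347 CPM in 2-566 and 3-604. *Dct*, a melanin-synthesis enzyme, was at 2.85, 5.42 and 2.09 CPM in the first 3 and at 0.277 and 0.193 CPM in the other 2. In wild-type PA1 *Pmel* was at 0.252 to 1.01 CPM and *Dct* at 0.0404 to 0.592 CPM. Neither passed FDR 0.01 in limma-voom (0.323 for *Pmel*, 0.164 for *Dct*), whereas DESeq2 called *Pmel* as higher. *Otx2* and *Pax6*, transcription factors of the forebrain and eye, were highest in *Grhl2*-/- 1-588, at 38.3 and 37.3 CPM. That arch had the lowest *Sox10* of the mutant group, at 24.9 CPM.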
